A study of Mus musculus with 8 samples.

Results

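Potassium channel genes, taken as every gene with a symbol starting with Kcn, were compared between the germinal and the postmitotic layers of the embryonic mouse neocortex. A RefSeq table held 98 such symbols, and the accessions of 130 array probes led to 96 of them, out of 39429 gene probes for 32524 genes in all. Probes without a symbol were counted as genes by their identifier on the array, and 20283 of the genes had a symbol. The noncoding Kcnd3os and Kcnmb4os2 had no matched probe. Of the 96 genes, 72 were bright enough to be tested, which needed a probe well above background in V/SVZ or in CP on each of the 4 arrays. The other 24 were not tested, and 15 of them were above background on no array.

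Total RNA came from ICR mouse embryos at day 16 (E16). Groups were the hand-dissected ventricular and subventricular zones (V/SVZ), where progenitors divide, and the cortical plate (CP), where young neurons settle, with 4 samples of each tissue. No treatment, mutation or transgene is given in the labels, and each sample was labelled with Cy3 and hybridised to its own 1-colour Agilent array. The labels do not say whether samples came from separate embryos or litters, so p-values cover only the variation among these samples, and that variation may be technical.

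Potassium channels let potassium leave or enter a cell and set its resting potential and the shape of its electrical signals. Voltage-gated channels open on depolarisation, inward rectifiers and two-pore channels carry current near rest, and calcium- or sodium-activated channels link the membrane potential to ions inside the cell. Many work with accessory subunits that change their gating or bring them to the surface. In the developing cortex, progenitors are known for a negative resting potential carried by leak currents, and neurons gain voltage-gated currents as they mature.

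Values are log2 of the processed signal relative to the 75th percentile of each array, and differences are V/SVZ minus CP, so a negative difference means a higher level in CP. A gene was called where limma's test, with Benjamini-Hochberg adjustment over all 19232 tested genes, gave an adjusted p below 0.05. The 75th percentile signal ran from 2113 to 2566 intensity units over the 8 arrays, 58.5% to 62.9% of gene probes were well above background, and no gene spot was saturated. Arrays correlated at 0.992 to 0.995 within V/SVZ, 0.996 to 0.997 within CP and 0.88 to 0.897 between tissues. All V/SVZ arrays lay on 1 slide and all CP arrays on another, so slide and tissue cannot be told apart. Progenitor markers were all called higher in V/SVZ (6 of 6, median 5.27) and cortical neuron markers all higher in CP (6 of 6, median -1.55), which is the order the tissue labels give. Across the 7 spike-in RNAs with a mean log2 signal of at least 8, the largest scaled difference between tissues was 0.159. The dimmer spike-in RNAs, which were not used, differed by -0.45, -0.35 and 0.17.

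Promoters are shown for 4 members: Kcnj10 and Kcne1l, which had the largest differences towards V/SVZ, Kcnma1, which had the largest towards CP among genes above background on all 8 arrays, and Kcnj9, the neighbour of Kcnj10. They are RefSeq windows of assembly GRCm38.p6, from 250 bases before to 50 after the annotated start. Each is written from 5′ to 3′ on the strand of the gene. Capitals mark a match, on either strand, to an E-box of the letters CAGCTG, to an E-box spelled CATCTG, or to the core of a cyclic AMP response element, TGACG.
Kcnj10, chr1:172340960-172341259, plus strand: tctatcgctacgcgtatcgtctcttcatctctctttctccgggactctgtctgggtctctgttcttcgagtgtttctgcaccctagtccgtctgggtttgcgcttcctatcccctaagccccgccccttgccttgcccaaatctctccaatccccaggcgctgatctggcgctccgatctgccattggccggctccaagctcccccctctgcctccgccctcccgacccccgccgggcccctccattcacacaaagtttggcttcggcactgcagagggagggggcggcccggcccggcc
Kcnj9, chr1:172329273-172329572, minus strand: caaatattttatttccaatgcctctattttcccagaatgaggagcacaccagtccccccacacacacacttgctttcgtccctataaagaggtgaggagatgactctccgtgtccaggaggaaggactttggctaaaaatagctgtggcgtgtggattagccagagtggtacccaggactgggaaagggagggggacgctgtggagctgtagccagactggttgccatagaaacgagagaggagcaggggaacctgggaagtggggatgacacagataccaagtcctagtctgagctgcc
Kcne1l, chrX:142306149-142306448, minus strand: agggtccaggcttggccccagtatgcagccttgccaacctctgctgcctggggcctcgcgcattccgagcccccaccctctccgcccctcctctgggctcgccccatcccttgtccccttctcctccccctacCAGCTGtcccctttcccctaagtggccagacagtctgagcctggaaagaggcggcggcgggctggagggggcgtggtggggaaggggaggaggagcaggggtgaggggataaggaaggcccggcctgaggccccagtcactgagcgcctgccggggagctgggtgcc
Kcnma1, chr14:24004156-24004455, minus strand: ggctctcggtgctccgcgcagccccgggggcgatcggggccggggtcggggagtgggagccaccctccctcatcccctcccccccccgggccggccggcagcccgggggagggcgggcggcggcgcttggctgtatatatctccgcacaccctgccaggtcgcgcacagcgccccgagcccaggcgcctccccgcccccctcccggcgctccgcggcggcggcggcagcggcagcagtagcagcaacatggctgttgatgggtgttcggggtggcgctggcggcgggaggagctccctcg
The Kcnma1 window had a GC content of 78.0%, Kcne1l 69.7%, Kcnj10 63.7% and Kcnj9 52.3%, against a median of 52.7% over all 32851 promoters of the table and 58.0% over the 97 promoters found for 72 Kcn genes. The ratio of observed to expected CpG was 0.789 for Kcnma1 and 0.748 for Kcnj10, and lower for Kcne1l (0.33) and Kcnj9 (0.249). Of the 4 windows, only that of Kcne1l held a match, to the E-box CAGCTG. This motif was found in 24.7% of Kcn promoters and 16.3% of all promoters, the CATCTG form in 20.6% and 17.2%, and TGACG in 19.6% and 20.8%. Among Kcn genes with a promoter in the table, CAGCTG was found for 5 of 10 genes called higher in V/SVZ, 4 of 31 called higher in CP, 2 of 10 not called and 7 of 21 not tested. The CATCTG form was found for 2 of 10, 7 of 31, 4 of 10 and 5 of 21 of these, and TGACG for 1 of 10, 8 of 31, 3 of 10 and 7 of 21. Some genes have several promoters, and no test was made. A match describes letters and is not shown to be a bound site.

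Potassium channel genes were more often higher in CP than in V/SVZ. Of the 72 tested genes, 48 were called higher in CP (66.7%), where 44.6% of all tested genes were, and 11 were called higher in V/SVZ (15.3%), where 35% of all genes were. In either direction, 59 were called, against 79.5% of all genes. The median difference was -1.28, beside -0.094 over all genes, and -1.08 with genes seen in 1 tissue only set to the bound on their difference. At least 2-fold differences were found for 38 genes towards CP and 6 towards V/SVZ, where 16.5% and 13.7% of all genes had them. Of the 13831 tested genes with a symbol, 43.5% were higher in CP and 38.6% in V/SVZ, with a median of -0.048. At least 2-fold differences among these numbered 2170 towards CP and 2193 towards V/SVZ. The arrays of the tissues did not overlap for 58 of the 72 genes, and for 75.2% of all genes. CP was the higher tissue for 47 of the 58, and the called gene whose tissues overlapped was Kcnk2. Adjusted p-values of called genes (limma) ran from 3.96e-10 to 0.0386.

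The shift was smaller among genes measured in both tissues. The filter let 21 of the 72 genes in although they were not above background on all 8 arrays, and 19 of these were called higher in CP. Such a gene passed through its bright tissue, which favours genes that differ, so its call adds little to the counts given here. The exception among the 21 was Kcnt2, which was not called, and Kcnk5 was the 1 higher in V/SVZ. Among the 51 genes above background on all 8 arrays, 29 were higher in CP, 10 were higher in V/SVZ and 12 were not called, with a median difference of -0.56. Of all 17172 tested genes with that brightness, 44.3% were higher in CP and 34.3% higher in V/SVZ, with a median of -0.090. These are bulk tissue samples, in which fewer cells of a type and less RNA per cell cannot be told apart.

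**Figure D1:**
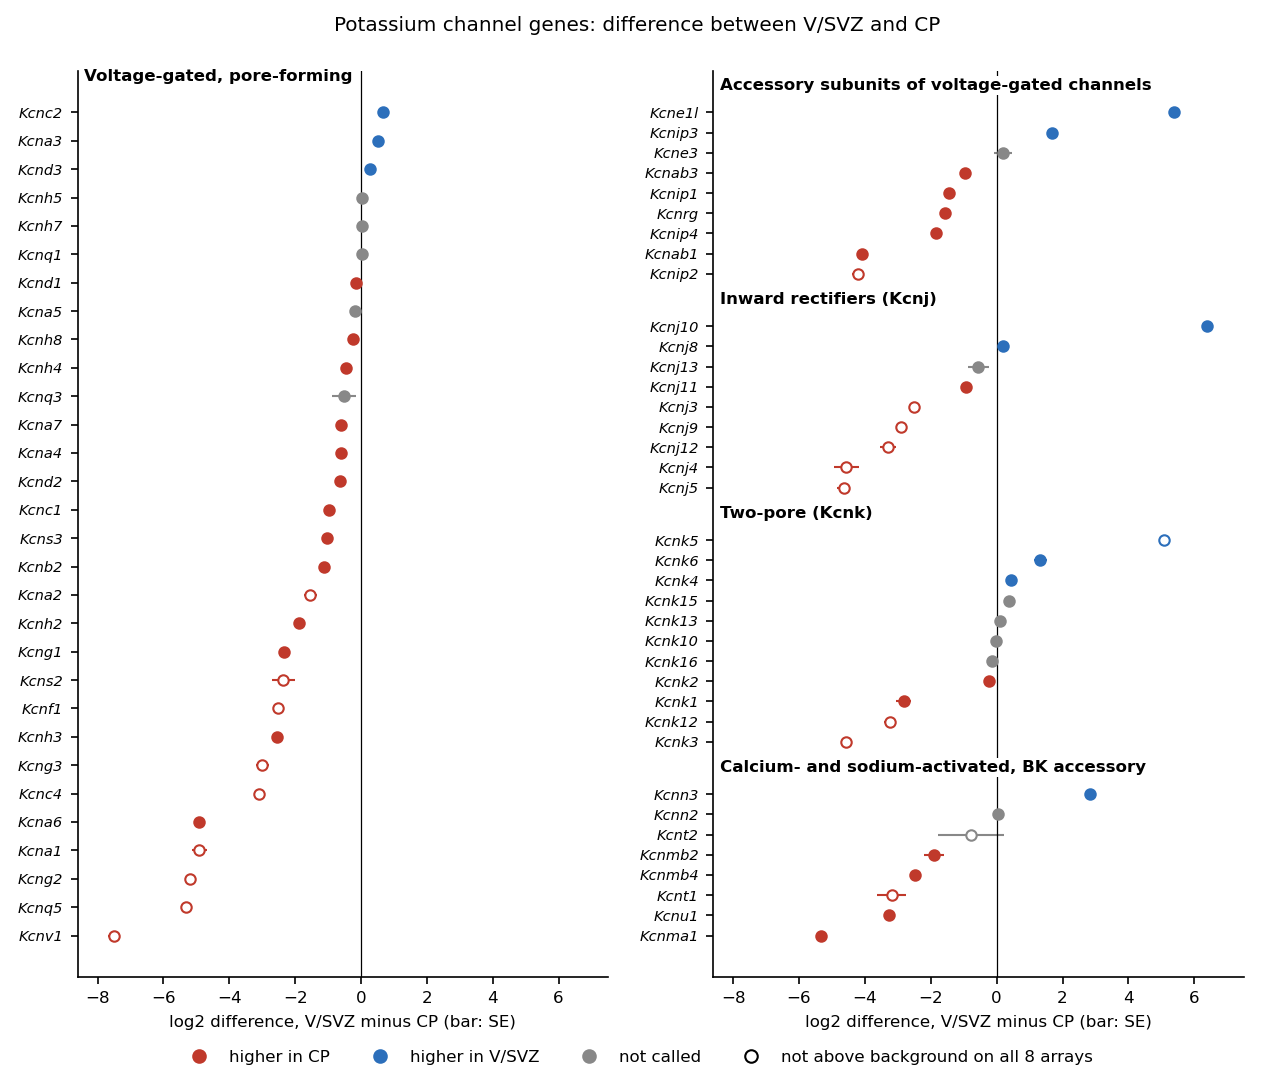
Log2 difference (V/SVZ minus CP) with its standard error for 67 tested protein-coding Kcn genes, ordered within class, with filled points for genes above background on all 8 arrays and open points for the others. Most points lie left of 0, down to -7.50 for Kcnv1, and Kcnj10, Kcne1l and Kcnk5 lie farthest to the right at 6.39, 5.38 and 5.08.

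The plot of differences by class shows both tails. Each class but the noncoding RNA held genes on both sides, and the classes are described in turn. The bars of calls by class give the same counts as shares.

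**Figure D2:**
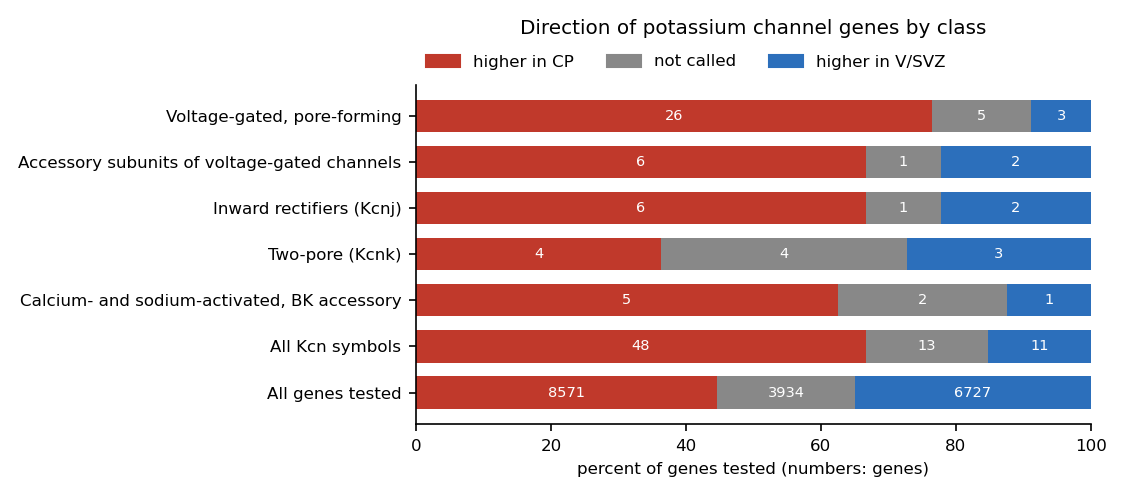
Percent of tested genes of each class called higher in CP, not called, or called higher in V/SVZ, with the number of genes written in each bar and all tested genes beside them. The voltage-gated bar has the largest share higher in CP, 76.5%, and the two-pore bar the smallest among channel classes, 36.4%. These shares include genes that passed the filter through 1 tissue alone, and their order depends on them. Among genes above background on all 8 arrays, 16 of 24 voltage-gated and 4 of 6 calcium- or sodium-activated genes were higher in CP. The same held for 5 of 8 accessory, 2 of 8 two-pore and 1 of 4 inward rectifier genes.

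Voltage-gated pore-forming subunits were mostly higher in CP. Of 40 with a probe, 34 were tested: 26 were higher in CP, 3 were higher in V/SVZ and 5 were not called. The median difference was -1.28 (-1.08 with bounds). Differences of at least 2-fold numbered 19 towards CP and 0 towards V/SVZ, and 24 of the 34 genes were above background on all 8 arrays, of which 16 were higher in CP.

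Kcnv1 encodes a silent subunit, one that makes no channel alone and changes others it joins. Its values were -7.63, -8.06, -8.17 and -8.56 in V/SVZ arrays 1 to 4, and -0.52, -0.54, -0.77 and -0.57 in CP arrays 1 to 4. All V/SVZ values were low and not well above background, and all CP values were high. The difference was -7.50 (SE 0.18, limma adjusted p = 5.77e-09), which is given as at least 46.5-fold higher in CP. That bound takes the lowest signal well above background among all gene probes of each V/SVZ array. Kcng2, a second silent subunit, measured -7.88, -7.64, -7.91 and -7.69 in V/SVZ and -2.37, -2.70, -2.65 and -2.68 in CP. The tissues did not overlap, V/SVZ was not above background on any array, and the level in CP was at least 11.6-fold higher (difference -5.18, SE 0.10, limma adjusted p = 1.75e-09). A second probe of Kcng2 was above background on no array of either tissue (mean -7.72 in V/SVZ and -7.20 in CP) and was not tested, so only 1 probe carries this difference. Another background correction, normexp, which adds 50 to every signal and so draws dim values together, gave 22.4-fold for Kcnv1 and 6.49-fold for Kcng2, both below those bounds.

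Silent subunits are encoded by the Kcnf, Kcng, Kcns and Kcnv genes, most of which were dim in V/SVZ. Of 10 in the RefSeq table, 7 were tested and called higher in CP, while Kcng4, Kcns1 and Kcnv2 were not tested. However, 5 of the 7 passed the filter through CP alone, and only Kcng1 and Kcns3 were above background on all 8 arrays. In V/SVZ, 3 of the 7 were not above background on any array. Kcng3 was at least 2.0-fold higher in CP (difference -2.99, SE 0.20). Kcnf1 was 5.73-fold higher (3.0-fold after normexp) with 3 V/SVZ arrays above background, and Kcns2 was 5.11-fold higher (2.10-fold after normexp) with 1. Kcng1 and Kcns3 were 5.03-fold and 2.04-fold higher in CP.

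Several Kcnq genes, though not Kcnq1, encode subunits of the M current, a slow current that damps repetitive firing. Kcnq5 measured -5.72, -6.15, -6.31 and -5.89 in V/SVZ and -0.71, -0.81, -0.64 and -0.67 in CP. CP arrays were uniformly high, V/SVZ arrays were low, and 1 of those was above background. The difference of -5.31 (SE 0.12, limma adjusted p = 5.35e-09) is 39.7-fold. It came to 13.8-fold after normexp. The second probe was not above background on any V/SVZ array and gave at least 1.62-fold, and an average over both probes rests on those values.

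Kcnq3, another M channel subunit, was not called, at -0.52 (SE 0.36, limma adjusted p = 0.218). It measured -3.59, -3.60, -3.49 and -1.94 in V/SVZ and -2.58, -2.59, -2.69 and -2.69 in CP. V/SVZ array 4 alone was higher than CP, and the other 3 V/SVZ arrays were all lower. Without that array the difference was -0.92 and was called (limma adjusted p = 3.37e-06). Kcnq1, known for its role in heart and epithelia, was not called either, at 0.021 (adjusted p = 0.859).

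Kcna genes encode the Shaker-related channels found along axons. Kcna6 had the lowest p-value of all Kcn genes: it lay between -2.11 and -1.83 in V/SVZ and between 2.92 and 3.0 in CP. The ranges are narrow and far apart, with a difference of -4.91 (SE 0.06, limma adjusted p = 3.96e-10), or 30.1-fold. Its second probe, not above background on any V/SVZ array, gave at least 4.06-fold. Kcna1 reached the same difference of -4.91 with a wider error (SE 0.23), but 1 V/SVZ array was above background and the 30.2-fold value fell to 9.07-fold after normexp. Kcna2 was 2.91-fold higher in CP with 2 V/SVZ arrays above background. Kcna4 and Kcna7 were higher in CP by less than 2-fold, at -0.61 and -0.59, and Kcna5 was not called at -0.20 (SE 0.15, adjusted p = 0.268).

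Kcna3, of the same subfamily, was higher in V/SVZ. It measured -2.50, -2.35, -1.99 and -2.56 in V/SVZ and -2.89, -2.80, -2.93 and -2.85 in CP. The V/SVZ arrays were all above those of CP, by a margin that is small beside their own spread. The difference was 0.52 (SE 0.12, limma adjusted p = 0.00393), or 1.44-fold.

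Kcnc genes encode fast channels that let neurons fire at high rates. Kcnc4 was 8.53-fold higher in CP (3.75-fold after normexp, with 2 V/SVZ arrays above background) and Kcnc1 was higher in CP at -0.99. Kcnc2 went the other way, with -1.89, -2.14, -1.84 and -2.02 in V/SVZ and -2.65, -2.84, -2.39 and -2.69 in CP. V/SVZ was the higher tissue on every array, and the difference of 0.67 (SE 0.11, limma adjusted p = 0.000522), or 1.59-fold, was the largest towards V/SVZ among voltage-gated pore-forming genes.

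Kcnd genes carry the fast transient A current of dendrites. Kcnd2 was higher in CP at -0.64. Kcnd1 was called at -0.15, a size below the largest spike-in difference, and its call was lost under median scaling (-0.065, adjusted p = 0.51) and quantile normalization (-0.13, adjusted p = 0.0568). Kcnd3 measured 2.20, 2.21, 2.12 and 2.20 in V/SVZ and 1.96, 1.90, 1.93 and 1.91 in CP. It was higher on each V/SVZ array, but by 0.26 (SE 0.03, limma adjusted p = 0.000186), or 1.20-fold, and its second probe was not called at 0.06.

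Kcnb2, which carries slow delayed rectifier current, was above background on all 8 arrays and 2.18-fold higher in CP. Of the Kcnh genes, relatives of ether-a-go-go, Kcnh3 was 5.88-fold and Kcnh2, also known from heart, 3.67-fold higher in CP. Kcnh4 (-0.46) and Kcnh8 (-0.24) were called higher in CP by less than 2-fold, and the call of Kcnh8 was lost under median scaling and with the mean of its probes. Kcnh5 and Kcnh7 were not called, at 0.04 each (adjusted p = 0.779 and 0.749).

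Accessory subunits of voltage-gated channels included some of the largest differences in each direction. Of 13 with a probe, 9 were tested, 6 were higher in CP, 2 were higher in V/SVZ and 1 was not called, with a median of -1.46. All but Kcnip2 were above background on all 8 arrays.

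Kcnip genes encode calcium-binding proteins that assemble with the A-current channels. Kcnip2 measured -6.59, -5.95, -6.65 and -6.01 in V/SVZ and -2.01, -1.95, -2.29 and -2.10 in CP. CP was high throughout and 1 V/SVZ array was above background, so the 18.5-fold value (difference -4.21, SE 0.18, limma adjusted p = 1.61e-07) fell to 5.81-fold after normexp. Kcnip4 measured -4.25, -4.48, -4.40 and -4.39 in V/SVZ and -2.64, -2.54, -2.56 and -2.37 in CP. The groups were tight and apart, with a difference of -1.85 (SE 0.07, limma adjusted p = 7.6e-08), or 3.61-fold. Kcnip1 was 2.74-fold higher in CP.

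Kcnip3, whose product is also known as calsenilin and as a calcium-dependent transcriptional repressor, was the Kcnip gene higher in V/SVZ. It measured 2.92, 2.96, 3.20 and 3.15 in V/SVZ and 1.34, 1.12, 1.64 and 1.46 in CP. Every V/SVZ array was above every CP array, with a difference of 1.67 (SE 0.12, limma adjusted p = 3.48e-06), or 3.18-fold.

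Kcnab genes encode cytoplasmic beta subunits, which bind Shaker-related channels and can inactivate them. Kcnab1 measured -4.30, -4.42, -4.41 and -4.53 in V/SVZ and -0.05, -0.58, -0.25 and -0.36 in CP. The tissues were far apart, by -4.10 (SE 0.11, limma adjusted p = 1.08e-08). Kcnab3 was 1.96-fold higher in CP, and Kcnab2 was not tested. Kcnrg, whose product is no channel subunit but limits the assembly of voltage-gated channels, was 2.94-fold higher in CP.

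Kcne genes encode small single-span subunits that modify the gating of pore-forming subunits. Kcne1l measured 1.98, 1.98, 1.86 and 1.95 in V/SVZ and -3.24, -3.39, -3.69 and -3.45 in CP. V/SVZ was high and nearly constant and CP was low, yet above background on all 4 arrays. The difference of 5.38 (SE 0.09, limma adjusted p = 1.19e-09) is 41.8-fold. After normexp it was 27.6-fold, and the average over its probes, of which the second gave 2.92, was 17.8-fold. Kcne3 was not called at 0.19 (SE 0.26, adjusted p = 0.52), and Kcne1, Kcne2 and Kcne4 were not tested.

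**Figure D3:**
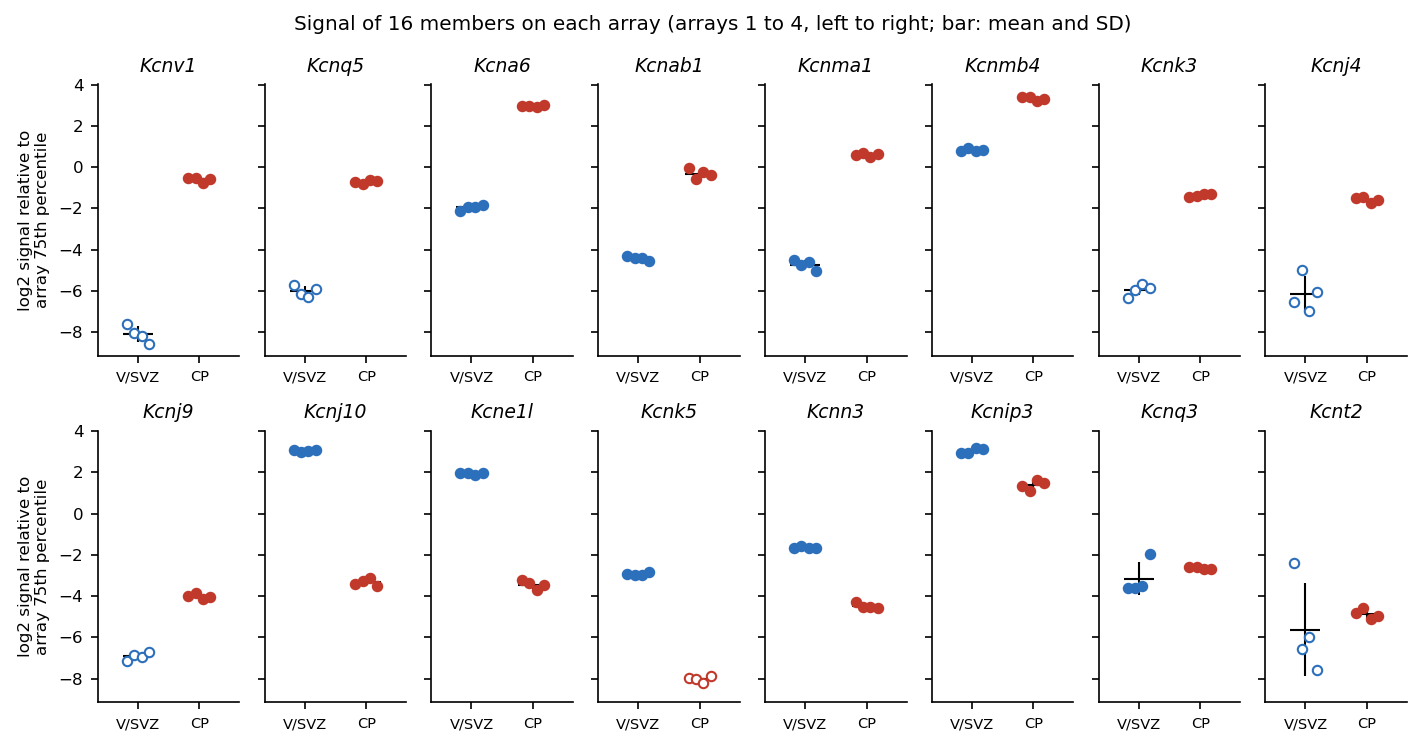
Values on each of the 8 arrays (log2 relative to the 75th percentile of the array) for 16 Kcn genes, with V/SVZ and CP arrays side by side, the mean and its SD, and open points where a tissue was not above background on all 4 arrays. Kcnj10, Kcne1l, Kcnk5, Kcnn3 and Kcnip3 are higher in V/SVZ on every array, while for Kcnq3 and Kcnt2 a single V/SVZ array lies apart from the other 3.

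The plot of values by array shows how tight most groups were beside the distance between tissues. It also shows the dim V/SVZ values of genes such as Kcnv1 and Kcnj9, whose lower ends carry no measured order. Levels of different probes are not comparable with each other.

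Inward rectifiers held both the gene highest towards V/SVZ and several genes that were near background there. Of 15 with a probe, 9 were tested, 6 were higher in CP, 2 were higher in V/SVZ and 1 was not called. The median was -2.52 (-2.13 with bounds). Only 4 of the 9 were above background on all 8 arrays: Kcnj8 and Kcnj10 were higher in V/SVZ, Kcnj11 was higher in CP and Kcnj13 was not called, with a median of -0.18. The other 5, all called higher in CP, passed the filter through CP alone.

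Kcnj10 encodes the glial inward rectifier that takes up extracellular potassium. It measured 3.08, 3.0, 3.02 and 3.10 in V/SVZ and -3.44, -3.28, -3.14 and -3.50 in CP. All V/SVZ arrays were high, all CP arrays were low and above background, and no value came near the other tissue. The difference of 6.39 (SE 0.08, limma adjusted p = 4.03e-10) is 83.7-fold, and 59.0-fold after normexp, both the largest among Kcn genes above background on all 8 arrays.

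Kcnj9, the neighbouring gene, encodes a subunit of the G protein-gated channels that slow neuronal firing. It lay between -7.15 and -6.72 in V/SVZ, not above background on any array, and between -4.13 and -3.85 in CP. Opposite to Kcnj10, it was at least 4.37-fold higher in CP (difference -2.91, SE 0.10, limma adjusted p = 3.87e-08; 2.51-fold after normexp). Kcnj5, of the same group, measured -7.50, -7.97, -8.03 and -8.39 in V/SVZ and -3.52, -3.42, -2.98 and -3.40 in CP. Its tissues were apart and V/SVZ was again not above background, so CP was at least 7.0-fold higher (difference -4.64, SE 0.20, limma adjusted p = 1.48e-07; 4.18-fold after normexp). Kcnj3, which encodes another subunit, was 5.72-fold higher in CP (3.10-fold after normexp) with 1 V/SVZ array above background, and its second probe gave -2.82. Kcnj6, which encodes a further one, was not tested.

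Kcnj4 and Kcnj12 encode strong classical rectifiers that hold neurons and muscle near rest. Kcnj4 measured -6.54, -4.98, -6.97 and -6.04 in V/SVZ and -1.48, -1.46, -1.76 and -1.60 in CP. V/SVZ was low and scattered, with 2 arrays above background, and CP was high. The difference of -4.56 (SE 0.39, limma adjusted p = 1.09e-05) is 23.6-fold, 8.16-fold after normexp and 14.3-fold with array weights. Kcnj12 measured -6.91, -6.77, -6.72 and -5.78 in V/SVZ and -3.47, -3.28, -3.23 and -2.97 in CP. V/SVZ array 4, the highest of its tissue, was the one above background there, and the 9.89-fold value (difference -3.31, SE 0.25, limma adjusted p = 4.96e-06) was 3.42-fold after normexp. Kcnj2 and Kcnj14, of the same group, were not tested.

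Kcnj11 and Kcnj8 encode the pores of the ATP-sensitive channels, Kcnj8 being best known from pericytes and smooth muscle. Kcnj11 was 1.92-fold higher in CP (difference -0.94, SE 0.07). Kcnj8 measured -3.22, -3.51, -3.48 and -3.32 in V/SVZ and -3.53, -3.57, -3.70 and -3.53 in CP. V/SVZ was above CP on every array by a narrow gap, and the call at 0.20 (SE 0.08, limma adjusted p = 0.0386) was lost in 11 of 19 alternatives. Pericyte markers were higher in V/SVZ for 2 of 5 genes and not called for 3 (median 0.18), their summed log2 level running from 1.26 to 1.57 in V/SVZ and from 0.83 to 1.16 in CP. Their part in the Kcnj8 value was not tested. Kcnj13, known from choroid plexus and other epithelia, was not called at -0.56 (SE 0.33, adjusted p = 0.147), with values overlapping between tissues. It was called at -0.85 without V/SVZ array 3 (adjusted p = 0.0125).

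Two-pore genes were the most evenly divided class. Of 14 with a probe, 11 were tested, 4 were higher in CP, 3 were higher in V/SVZ and 4 were not called, with a median of -0.026. Among the 8 above background on all 8 arrays, 2 were higher in each tissue and 4 were not called.

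Kcnk3 encodes an acid-sensitive leak channel. It measured -6.32, -5.94, -5.65 and -5.84 in V/SVZ and -1.43, -1.39, -1.31 and -1.32 in CP. CP was high and even, and V/SVZ was low with 2 arrays above background. The difference of -4.58 (SE 0.13, limma adjusted p = 1.55e-08) is 23.9-fold, or 7.97-fold after normexp. Kcnk12, which by itself gives little current, measured -5.99, -5.77, -5.93 and -5.71 in V/SVZ and -2.61, -2.96, -2.06 and -2.81 in CP. Its groups were apart, 3 V/SVZ arrays were above background, and the difference was -3.24 (SE 0.19, limma adjusted p = 9.71e-07), 9.46-fold or 4.35-fold after normexp. Kcnk1, a weak inwardly rectifying leak channel, measured -4.69, -4.89, -4.26 and -4.59 in V/SVZ and -2.15, -1.99, -1.24 and -1.73 in CP. CP was higher on every array, by -2.83 (SE 0.21, limma adjusted p = 5.23e-06), or 7.10-fold, and 4.33-fold after normexp.

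Kcnk5 encodes a leak channel opened by alkaline pH and is known from kidney epithelia. It measured -2.91, -2.99, -2.96 and -2.85 in V/SVZ and -7.96, -8.01, -8.21 and -7.86 in CP. It was the 1 Kcn gene above background on all V/SVZ arrays and on no CP array, at least 6.84-fold higher in V/SVZ (difference 5.08, SE 0.08, limma adjusted p = 7.14e-10; 4.51-fold after normexp). Kcnk6 measured -3.23, -3.08, -2.94 and -2.66 in V/SVZ and -4.83, -4.30, -3.93 and -4.14 in CP. The groups were scattered but apart, with a difference of 1.32 (SE 0.20, limma adjusted p = 0.000439), or 2.50-fold. Kcnk4, a mechanically gated channel, measured -1.02, -1.40, -1.54 and -1.51 in V/SVZ and -1.89, -1.81, -1.75 and -1.76 in CP. V/SVZ was the higher tissue by 0.44 (SE 0.11, limma adjusted p = 0.00782), or 1.35-fold, with array 1 the highest.

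Kcnk2 and Kcnk10, relatives of Kcnk4, differed little. Kcnk2 was called higher in CP at -0.24 (SE 0.08, limma adjusted p = 0.0273) although its arrays overlapped, and the call was lost in 6 of the 19 alternatives. Kcnk10 was not called at -0.026 (adjusted p = 0.691), nor were Kcnk16 at -0.13 (adjusted p = 0.328), Kcnk13 at 0.11 (adjusted p = 0.243) and Kcnk15 at 0.39 (SE 0.17, adjusted p = 0.0601). Kcnk15 crossed the threshold under median scaling, quantile normalization, array weights, the authors' deposited table and without V/SVZ array 3.

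Calcium- and sodium-activated channels with their accessory subunits were mostly higher in CP. Of 12 with a probe, 8 were tested, 5 were higher in CP, 1 was higher in V/SVZ and 2 were not called, with a median of -2.19. Kcnt1 and Kcnt2 were not above background on all 8 arrays, and the other 6 were.

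Kcnma1 encodes the pore of the large-conductance BK channel, opened jointly by calcium and voltage. It measured -4.50, -4.76, -4.61 and -5.04 in V/SVZ and 0.59, 0.70, 0.47 and 0.62 in CP. V/SVZ was low on every array and CP was high, and the difference was -5.33 (SE 0.12, limma adjusted p = 3.51e-09). A second probe, not above background on any V/SVZ array, gave at least 11.0-fold. Kcnmb4, the brain beta subunit of this channel, ran from 0.79 to 0.94 in V/SVZ and from 3.22 to 3.39 in CP. The ranges were narrow and apart, giving 5.61-fold (difference -2.49, SE 0.05, limma adjusted p = 3.68e-09) with -2.51 for a second probe. Kcnmb2, an inactivating beta subunit, was 3.74-fold higher in CP, and 2.42-fold with array weights. Kcnmb1 and Kcnmb3 were not tested.

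Kcnu1 encodes a relative of Kcnma1 known from sperm. Its probe measured -3.40, -3.38, -3.19 and -3.40 in V/SVZ and -0.07, 0.02, -0.14 and -0.13 in CP. The arrays of each tissue lay close together, and CP was 9.57-fold higher (difference -3.26, SE 0.06, limma adjusted p = 2.08e-09). Kcnt1, a sodium-activated channel, measured -6.19, -6.85, -7.05 and -4.91 in V/SVZ and -3.36, -2.94, -2.88 and -3.06 in CP. V/SVZ was scattered, with 1 array above background, and the difference of -3.19 (SE 0.44, limma adjusted p = 0.000226) is 9.13-fold, or 3.33-fold after normexp.

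Kcnt2, the related sodium-activated channel, had the widest spread among tested Kcn genes and was not called at -0.77 (SE 1.01, adjusted p = 0.5). It measured -2.39, -6.57, -5.96 and -7.57 in V/SVZ and -4.80, -4.58, -5.09 and -4.96 in CP. V/SVZ array 1 was above all CP arrays and the other 3 were below them. Without it the difference was -1.85 and was called (adjusted p = 0.0029), and without V/SVZ array 4 it was -0.12.

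Kcnn genes encode small-conductance channels that follow calcium alone. Kcnn3 measured -1.68, -1.59, -1.67 and -1.67 in V/SVZ and -4.30, -4.51, -4.52 and -4.59 in CP. V/SVZ was higher throughout, and the difference of 2.83 (SE 0.06, limma adjusted p = 4.46e-09) is 7.09-fold, or 4.36-fold after normexp. A second probe, not above background on any CP array, gave at least 2.98-fold. Kcnn2 was not called at 0.04 (SE 0.06, adjusted p = 0.562), and Kcnn1 and Kcnn4 were not tested. Kcnq1ot1, the long noncoding RNA transcribed antisense to Kcnq1 and matched here by its own accession, was 2.74-fold higher in CP (difference -1.46, SE 0.26, limma adjusted p = 0.00108).

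Genes without a Kcn symbol whose products bind, anchor or resemble potassium channels were mostly higher in CP as well. Of 23 in the list, 20 were tested, 13 were higher in CP, 3 were higher in V/SVZ and 4 were not called, with a median of -1.49. Over all tested genes, 44.6% were higher in CP and 35% higher in V/SVZ, with a median of -0.094. Dpp10 and Dpp6, partners of the A-current channels beside the Kcnip proteins, were 7.36-fold and 7.08-fold higher in CP. Lrrc55, an accessory subunit of BK channels, was 45.1-fold higher in CP, and 18.4-fold after normexp. Lgi1 and Adam22, a secreted protein and its receptor near axonal Shaker-related channels, were 10.5-fold (5.37-fold after normexp) and 2.72-fold higher. Ank3, which anchors Kcnq channels at the axon initial segment, was 3.91-fold higher. Abcc8, the regulatory subunit that joins Kcnj11, was 4.33-fold higher in CP, while Abcc9 was not called at -0.032. Hcn3, a hyperpolarisation-activated channel gene, was higher in CP at -1.53 (log2).

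The 3 partner genes called higher in V/SVZ were Cntnap2 (3.01-fold), Hcn2 (0.24) and Akap5 (0.23). Under spike-in scaling only 1 gene of the list was called higher in V/SVZ. Cntnap2, which clusters Shaker-related channels on axons, was 1.62-fold higher with the mean of its probes (0.70 in place of 1.59). The second probe of Cntnap2 thus lay on the CP side of 0, and it was not called. The probes of Hcn2 were called in opposite directions, so no direction is drawn from it. Cntn2, which binds Cntnap2, was higher in CP at -1.69.

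Neighbouring Kcn genes did not always share a direction. In the RefSeq order of genes, 12 pairs of Kcn genes were adjacent or separated by 1 gene, and both genes were tested in 6 pairs. The share over all neighbouring genes of the arrays was not computed, so these few pairs are only described. Kcnj9 and Kcnj10 on chromosome 1, whose promoters are shown above, and Kcna3 and Kcna2 on chromosome 3 were called in opposite directions. Kcna1 and Kcna6 on chromosome 6 were both higher in CP, and their neighbour Kcna5 was not called. Kcnk5 was higher in V/SVZ beside Kcnk16, which was not called.

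Probes of the same Kcn gene differed in the size of their difference. Of 33 Kcn genes with several probes, 17 had several tested ones, and probes that did not pass the filter are not compared here. Among the 17 genes, 13 had all tested probes called the same way. Some were called and some not for 2 (Kcnd3 and Kcnh8), and Kcne3 and Kcnj13 had none called. Of all tested probes on the arrays 79.7% were called. Probes called in opposite directions were found for 0 of the 17 Kcn genes, against 8.23% of 3865 genes over the arrays. So few genes cannot set the Kcn genes apart from that share. The 3 probes of Kcnc1 gave -0.99, -1.09 and -1.91.

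**Figure D4:**
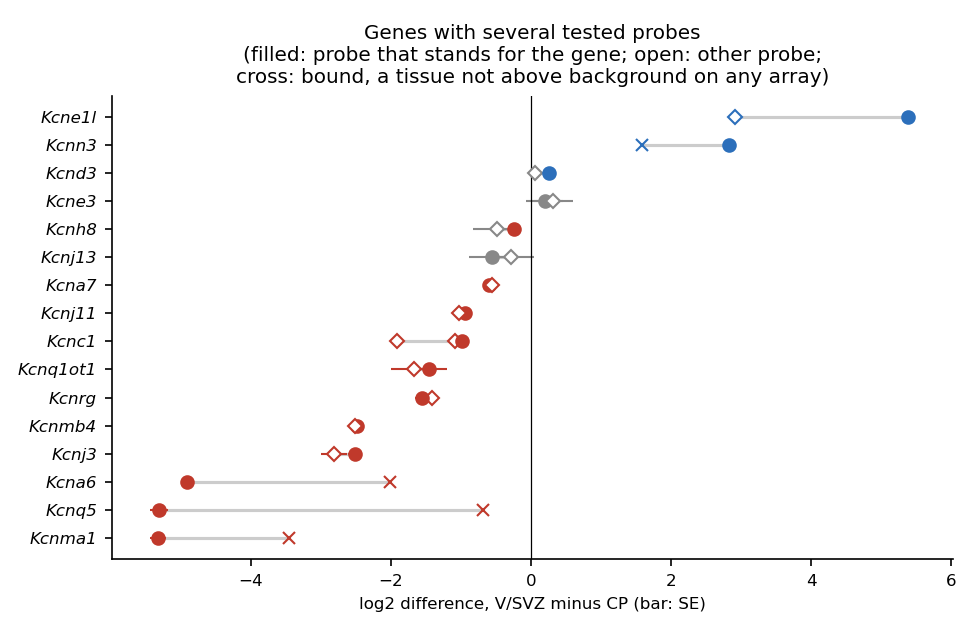
Log2 difference (V/SVZ minus CP) of every tested probe for 16 Kcn genes with several tested probes, 1 point per probe, with a cross at the bound for 4 probes that had a tissue not above background on any array. Probes of a gene lie on the same side of 0 wherever they were called, and the points of Kcne1l (5.38 and 2.92), measured in both tissues, lie well apart.

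The plot of differences under both background corrections shows how far the dim genes move. After normexp, 23 genes changed by more than 1.5 times, all towards smaller differences, and 19 of these were not above background on all 8 arrays. The other 4 were Kcnma1 (23.1-fold in place of 40.1-fold), Kcne1l, Kcnk1 and Kcnn3. Kcna6 kept most of its size at 25.6-fold and Kcnab1 was 11.7-fold in place of 17.2-fold.

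**Figure D5:**
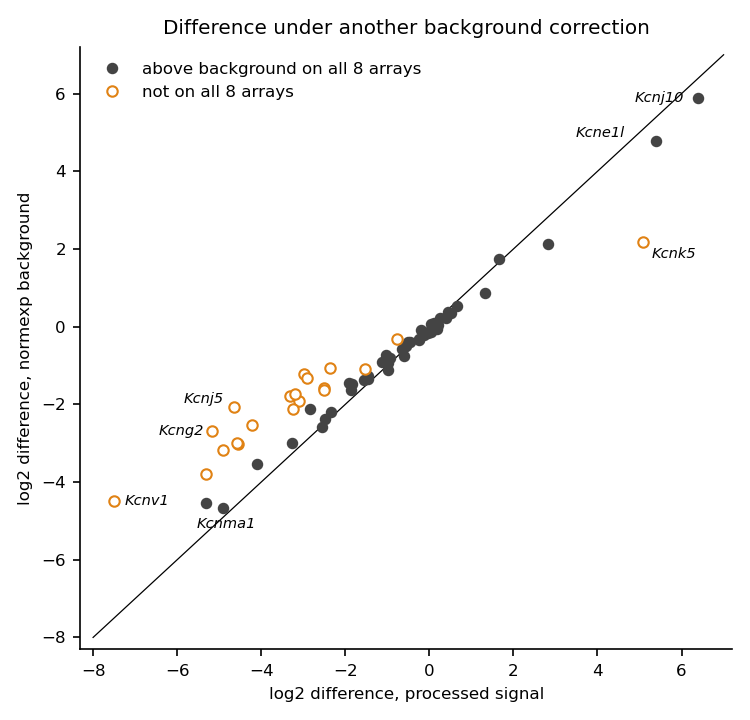
Log2 difference (V/SVZ minus CP) of 68 tested Kcn genes with the processed signal (horizontal axis) and after normexp background correction (vertical axis), with open points for genes not above background on all 8 arrays. Dim genes lie nearer to 0 on the vertical axis, such as Kcnv1 at -7.50 and -4.49, while Kcnj10 stays at 6.39 and 5.88.

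Markers of other cell types also differed between the tissues, and their part in the potassium channel results was not tested. Microglia markers were higher in V/SVZ for 5 of 6 genes and not called for 1 (median 1.87), with a summed log2 level of 2.97 to 3.44 in V/SVZ and 1.33 to 1.82 in CP. Endothelial markers were higher in V/SVZ for 2 of 5 and not called for 3 (2.72 to 2.86 and 2.46 to 2.61). Of the 5 interneuron markers, 3 were higher in CP and 2 in V/SVZ (2.62 to 2.85 and 3.02 to 3.13). Oligodendrocyte precursor markers were higher in V/SVZ for 2 of 4 and not called for 2 (-0.13 to 0.32 and -0.76 to -0.26). Red blood cell markers were higher in V/SVZ for 3 of 4 tested and not called for 1 (7.14 to 7.49 and 6.73 to 6.89). Among choroid plexus and ependyma markers, Ttr and Clic6 were not tested, and of the other 3, 2 were higher in V/SVZ and 1 in CP (-1.49 to -1.33 and -2.61 to -2.48). Meningeal markers divided into 1 higher in each tissue and 3 not called (-0.70 to -0.0017 and -0.69 to -0.37).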

How the data were processed

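Per the labels' protocols, 100 ng of total RNA was purified with RNeasy Micro, amplified by the Low Input Quick Amp method and labelled with Cy3. Per the file headers, the authors' intensity values were made with Agilent Feature Extraction 10.7.1.1, which subtracts background and detrends each array. A deposited table of log2 values was centred so that 99.8% of rows have a median of 0 (tolerance 1e-05), with column medians from -0.034 to 0.017. Its scaling and filter are unknown. Each of its columns matched the array with its number from the opposite tissue (r = 1), against -0.953 to -0.943 for the array it is named for. It therefore served as an alternative with the direction turned.

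Groups came from the sample titles. Signals were put on the log2 scale and shifted by the 75th percentile of each array, without control and outlier spots (142 to 258 per array). Symbols came from RefSeq accessions without version (GRCm38.p6), which named 26761 of 39429 gene probes, while the arrays were designed on mm9. Testing needed 4 arrays of a tissue well above background and a measured value on 3 arrays in both tissues (23860 probes), and the brightest such probe stood for its gene (19232 genes). lmFit and eBayes of limma 3.58.1 in R 4.3.3 were used with Benjamini-Hochberg adjustment, and the procedure was tested on simulated data. A fold written as "at least" concerns a gene with no array of its dim tissue above background. There the bright mean was set against the higher of the dim value and the lowest signal well above background among all gene probes of the array. Some probes with a higher signal than that lowest one were not well above background. These bounds are therefore approximate and concern the processed signal, and normexp gave smaller folds for some genes, such as Kcnv1 and Kcnk5.

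Same-numbered V/SVZ and CP samples correlated in their deviations at 0.339, 0.308, 0.098 and 0.204, and all but the third correlated best with their own number. Samples of the same number may thus share an origin, which the labels do not give. The main test did not pair them, and a block for the replicate number was run as an alternative. The members, lists and rules were chosen with earlier results of these data known. Values by array were to be given for up to 3 called members of a class with the largest difference in each direction. To be named were members higher in V/SVZ, not called, or called with at least a 2-fold difference. Kcnq3 and Kcnt2 are given by array because 1 array set their values. Alternatives changed scaling, background correction (normexp with an offset of 50 on the median signals), filter, probe choice, replicate block, variance model or array weights, used the deposited table, or left out an array. Some members and list genes that the rules name are counted but not reported singly here. The number of arrays limits the precision.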

Additional observations from a re-analysis of the deposited data

Results flagged for a closer look

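Within the 4 arrays of a tissue, a value was picked out where its gap to the nearest other array as a share of the range exceeded Dixon's limit for 4 values. This held for 6 of 136 groups of Kcn values, and chance alone picks out about 1 in 20 groups.

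The value that mattered for a call was Kcnq3 on V/SVZ array 4, at -1.94 where the other 3 V/SVZ arrays lay between -3.60 and -3.49. V/SVZ array 4 also stood apart for the inward rectifier gene Kcnj12, at -5.78 with the others between -6.91 and -6.72. Kcnu1 on V/SVZ array 3 was -3.19 beside -3.40 to -3.38, and Kcnn3 on V/SVZ array 2 was -1.59 beside -1.68 to -1.67. In CP, Kcng2 on array 1 was -2.37 beside -2.70 to -2.65, and Kcnc4 on array 3 was -3.29 beside -3.05 to -3.01. Apart from Kcnq3, none of these genes lost or gained a call when that array was left out.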

How the results depend on the processing

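Under 19 alternatives, 62 of 72 Kcn genes kept their call and direction in each one that tested them, and 55 of 59 called genes kept their call. No call reversed its direction, while some genes that were not called changed sign. Calls lost were those of Kcnd1, Kcnh8, Kcnk2 and Kcnj8, and calls gained those of Kcnk15, Kcnk10, Kcnk16, Kcnt2, Kcnj13 and Kcnq3. The median of all genes was -0.094 in the main test, -0.13 after normexp, -0.30 with no filter and -0.036 in the deposited table. It was -0.090 with genes above background on all 8 arrays. In the same order the Kcn median was -1.28, -1.06, -0.86, -0.62 and -0.56. With 1 array left out, the Kcn median ran from -1.42 to -1.19. With genes above background on all 8 arrays, fewer were tested and counts higher in CP were 29 of all Kcn genes, 16 voltage-gated, 2 two-pore and 1 inward rectifier. The deposited table, which holds 42 of the Kcn genes, gave 27 in all, 16 voltage-gated, 3 calcium- or sodium-activated, 2 two-pore, 2 inward rectifier and 8 partner genes higher in CP, and 1 accessory gene higher in V/SVZ. Of all 13669 genes tested in it, 83.7% were called in either direction. With no filter, 10 inward rectifiers were higher in CP, but this setting lets in genes above background on no array. Of all 32520 genes in it, 59.2% were called in either direction, with a median of -0.30, so the added calls are not read as expression. The count of inward rectifiers higher in V/SVZ was 1 in place of 2 under spike-in scaling, normexp, no filter, the variance trend and array weights, in each case because Kcnj8 lost its call. Partner genes higher in V/SVZ numbered 3, but 5 under quantile normalization and array weights and 1 under spike-in scaling; the cause was not tested. With 1 array left out, Kcn genes higher in CP numbered 47 to 49 and in V/SVZ 10 to 12, inward rectifiers 6 to 7 and 1 to 2, two-pore genes 3 to 4 in each direction, calcium- or sodium-activated genes 5 to 6 and 1, and partner genes 13 and 2 to 3. With the replicate number as a block (replicate block), 48 Kcn genes were higher in CP and 11 in V/SVZ, no call changed among 72 genes, and same-numbered samples correlated best with each other for 3 of 4 numbers. Signal over background limits the dim genes: 21 of 72 had a tissue not above background on all arrays, and their folds depend on the background correction.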
